A study of Moxostoma hubbsi with 18 samples.

Results

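The enzymes that break down lysine in mitochondria were followed in whole larvae of Moxostoma hubbsi, the copper redhorse, which is an endangered North American sucker. The members are 5 features of the count table, out of 9645 listed, picked by their KEGG ortholog identifiers. They are AASS (K14157), ALDH7A1 (K14085), AADAT (K00825), DHTKD1 (K15791) and GCDH (K00252), with the names that the selection rule pairs with the identifiers. All 5 were present and all 5 passed the filter on low counts. The members were selected with the comparison of river and laboratory water in view, so their differences between the waters are a description. Where the fit over all features called a member, that is listed beside the share of all features called, and it is not a test of the members.

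Larvae were raised in laboratory water, the control, or in river water, which the series title calls contaminated, and were sampled at 14 days post fertilization. Both waters had 9 libraries, each made from 5 pooled whole larvae, so a value is an average over animals and over all tissues. No strain, genotype or allele is given for either group, and nothing in the labels states that the pools of a water were reared apart. A p-value below covers pool-to-pool spread alone, part of which can be technical.

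Lysine is an essential amino acid, and animals oxidise the surplus mainly in the mitochondria of liver and kidney. In the saccharopine route, AASS joins lysine to 2-oxoglutarate and then splits the product, which leaves an aldehyde that ALDH7A1 oxidises to aminoadipate. AADAT moves the amino group of aminoadipate onto 2-oxoglutarate, DHTKD1 is the first subunit of the complex that turns the resulting 2-oxoadipate into glutaryl-CoA, and GCDH oxidises and decarboxylates glutaryl-CoA to crotonyl-CoA. In people, inherited loss of AASS causes hyperlysinaemia, loss of ALDH7A1 causes pyridoxine-dependent epilepsy and loss of GCDH causes glutaric aciduria. Suckers descend from an ancestor with a duplicated genome, and a feature defined by orthology can pool the copies of a gene.

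Library depth was between 14868181 and 20584727 counts. River water replicate 1 stood apart, with a median Spearman correlation of 0.956 with its own group, against 0.988 to 0.996 for the other 17 libraries. It also had the lowest depth, and results that rest on it are given with and without it. Levels are in CPM, the count brought to a common library size with TMM scaling factors (trimmed mean of M values). They are not corrected for transcript length, so levels were not compared between members.

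All 5 lysine breakdown features were lower in river water than in laboratory water, by 10.6% for AADAT to 20.7% for AASS. In the fit over all features, 5 of 5 members were among the features called lower at an adjusted p under 0.05 (edgeR), where 4.14% of the 9008 tested features were called lower and 6.27% were called in either direction. Because the members were picked on this contrast, nothing is read from that count or from the shared direction. With the libraries of each file number summed (3 against 3), 3 members were called and AADAT and GCDH were not. That fit called 3.45% of all features in either direction. The 373 lower and 192 higher calls became 221 and 314 when libraries were scaled by their total counts alone, and all 5 members then remained lower, with AADAT no longer called. Without river water replicate 1, all 5 were again called lower, among 6.72% of features called lower and 10.9% called in all. Less RNA per cell and fewer cells that carry the RNA cannot be told apart in whole larvae.

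AASS, the entry enzyme, had levels in laboratory water of 98.4 CPM at the lowest, 102 CPM at the median and 115 CPM at the highest. In river water the corresponding values were 61.9, 82.3 and 99.0 CPM. River water replicate 5 alone reached into the laboratory range, and the other 8 river libraries lay below the lowest laboratory library. The laboratory mean was 103 ± 5.38 CPM and the river mean 81.9 ± 9.51 CPM (SD over 9 libraries each), which gave a log2 fold change of -0.33 ± 0.06 (SE). River water replicate 1 held the lowest level, and without it the river mean became 84.4 ± 6.27 CPM (SD over 8 libraries) with a log2 fold change of -0.29 ± 0.04 (SE).

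ALDH7A1, which receives the aldehyde from the saccharopine route and also from the pipecolate route, ranged from 268 to 324 CPM in laboratory water with a median of 298 CPM. In river water it ranged from 225 to 272 CPM with a median of 252.4 CPM. The groups met at their edges, since 7 of 9 river libraries lay below the lowest laboratory library. The means were 296 ± 21.8 CPM and 250.4 ± 16.5 CPM (SD, n = 9 each), and the log2 fold change was -0.24 ± 0.05 (SE). River water replicate 1 was unremarkable for this enzyme at 247 CPM, and the log2 fold change without it was also -0.24.

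AADAT, which also transaminates kynurenine in tryptophan breakdown, had the smallest difference of the members. Its levels ran from 42.3 to 50.3 CPM in laboratory water (median 46.0 CPM) and from 38.3 to 44.7 CPM in river water (median 41.8 CPM). The groups overlapped, with 6 of 9 river libraries under the lowest laboratory level. Means of 46.5 ± 2.61 CPM and 41.6 ± 2.12 CPM (SD, n = 9 each) gave a log2 fold change of -0.16 ± 0.04 (SE). This feature had the fewest reads of the members, with 544 to 987 counts per library.

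DHTKD1, the dehydrogenase subunit that acts on 2-oxoadipate, was the member whose groups did not overlap with TMM scaling. Laboratory water libraries spanned 102.4 to 111 CPM with a median of 109 CPM, and river water libraries spanned 73.7 to 99.99 CPM with a median of 90.4 CPM. All 9 river libraries lay below all 9 laboratory libraries, as did those of 0.677% of the tested features, and this held for DHTKD1 under each of 4 scalings. AASS was also separated with upper-quartile scaling, and ALDH7A1 with total counts alone. The share of all features so separated was computed with TMM scaling only. Nothing is therefore read from the separations under the other scalings. The means of DHTKD1 were 108 ± 2.65 CPM and 88.5 ± 7.12 CPM (SD, n = 9 each), and the log2 fold change was -0.29 ± 0.04 (SE). River water replicate 1 was again the lowest, and leaving it out gave a river mean of 90.4 ± 4.77 CPM (SD, n = 8) and a log2 fold change of -0.26 ± 0.03 (SE).

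GCDH, a flavoprotein that passes its electrons to the electron transfer flavoprotein, had levels of 487 to 621 CPM in laboratory water with a median of 554 CPM. In river water it had 418 to 539.9 CPM with a median of 483 CPM. The lowest laboratory library, replicate 9, lay inside the river range, and 6 of 9 river libraries were below it. Means were 562 ± 42.9 CPM and 481 ± 38.1 CPM (SD, n = 9 each), and the log2 fold change was -0.22 ± 0.05 (SE). River water replicate 2, not replicate 1, was the lowest for this enzyme.

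**Figure D1:**
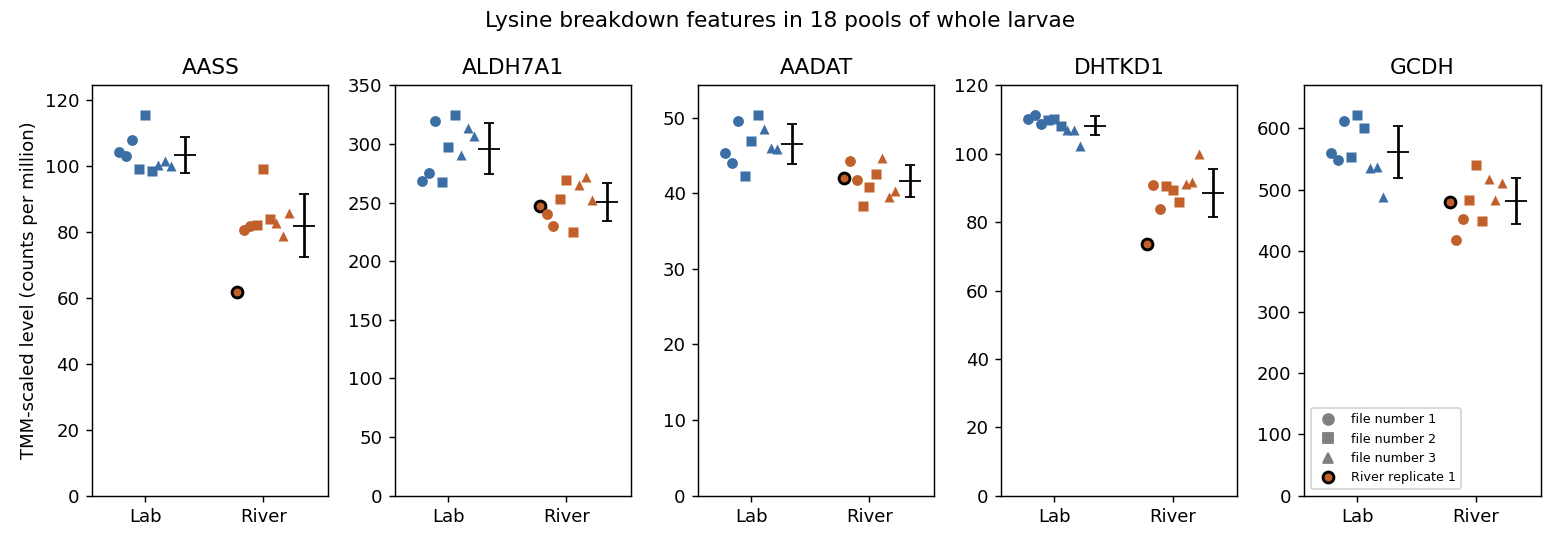
TMM-scaled level in CPM (linear axis from 0) of each member in the 9 laboratory water and 9 river water libraries. Points are libraries, shaped by the number in the file name, with river water replicate 1 outlined, and the bars are means ± SD (n = 9); the groups of DHTKD1 do not overlap, with 99.99 CPM as the highest river level and 102.4 CPM as the lowest laboratory level.

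The size of the difference was not shared evenly by library. In river water replicate 1, AASS at 61.9 CPM and DHTKD1 at 73.7 CPM were far below the rest of their group, whereas ALDH7A1, AADAT and GCDH at 247, 42.0 and 479 CPM were close to their group medians. In river water replicate 5 the order was otherwise, with AASS at 99.0 CPM, ALDH7A1 at 269 CPM and GCDH at 539.9 CPM inside the laboratory range while DHTKD1 stayed at 89.4 CPM.

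**Figure D2:**
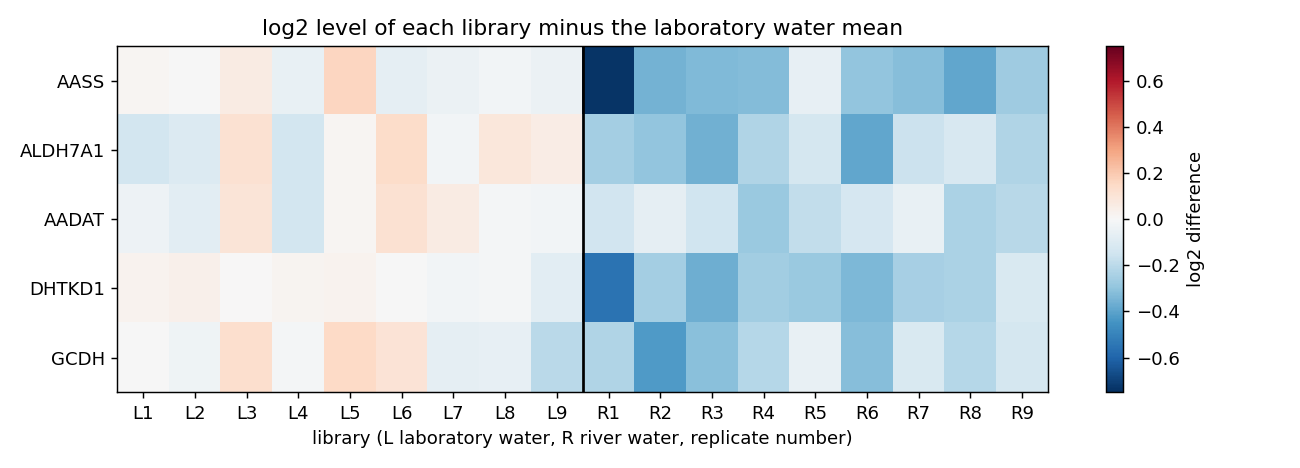
Log2 level of each member in each of the 18 libraries minus its mean over the 9 laboratory water libraries (colour, log2 scale). Columns L1 to L9 are laboratory water and R1 to R9 river water; the darkest cells are AASS and DHTKD1 in river water replicate 1, and river water replicate 5 is pale for AASS and GCDH.

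Ratios between members within a library do not depend on how libraries are scaled. They are ratios of counts, not corrected for transcript length, so only their shifts between the waters are described. None of the 10 pairwise ratios separated all 9 libraries of one water from all 9 of the other. Overlap does not show that the ratios were kept, and shifts in the ratios were not tested. The largest shift was that of AASS over AADAT, whose mean log2 ratio was 1.15 ± 0.10 in laboratory water and 0.97 ± 0.20 in river water (SD, n = 9 each), a difference of -0.18 that was -0.13 without river water replicate 1. AADAT over DHTKD1 followed with a difference of 0.13, or 0.10 without that library. ALDH7A1 over GCDH shifted least, by -0.02.

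Each sample file has a number (1, 2 or 3) in its name, shared by 3 libraries of each water, and the labels leave its meaning unstated. All 5 members were lower in river water within each number, but the size varied. The log2 ratio of means for GCDH was -0.35 within number 1, -0.27 within number 2 and -0.04 within number 3. In number 3 its laboratory mean was 520 ± 28.2 CPM and its river mean 504 ± 17.9 CPM (SD, n = 3 each), and 1 of 3 river libraries lay below the lowest laboratory library there. DHTKD1 had log2 ratios of -0.41, -0.30 and -0.16 in the same order, with -0.33 in number 1 once river water replicate 1 was left out. AASS had -0.49, -0.24 and -0.29, and its number 1 value was -0.37 without that library. ALDH7A1 stayed between -0.27 and -0.21, and AADAT between -0.20 and -0.12. Without that library the number 1 values were -0.40 for GCDH, -0.29 for ALDH7A1 and -0.10 for AADAT.

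**Figure D3:**
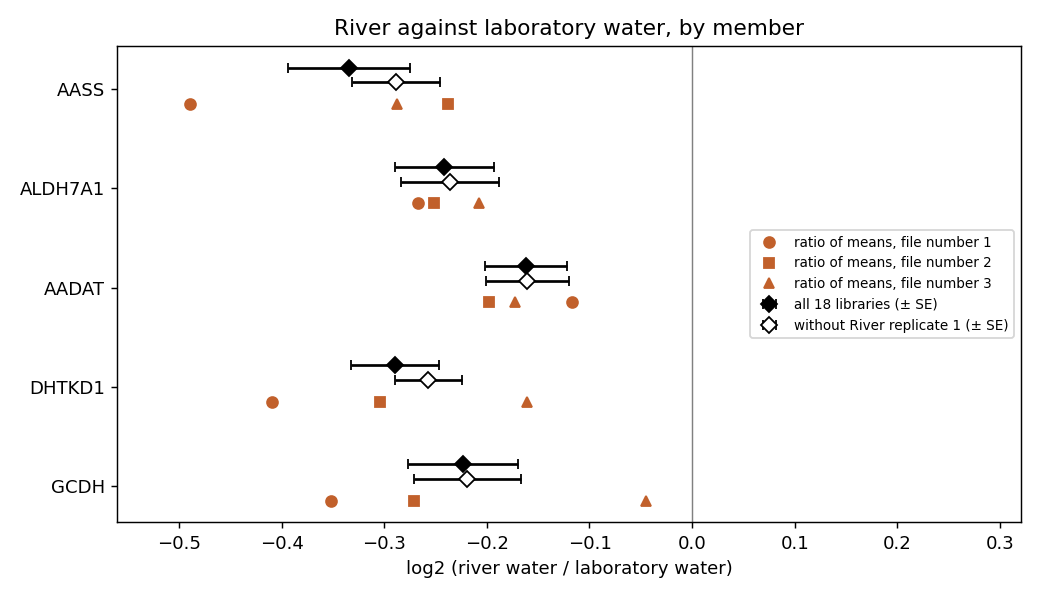
Log2 ratio of river over laboratory water for each member. Diamonds are the fitted log2 fold changes ± SE over all 18 libraries (filled) and without river water replicate 1 (open), and coloured points are ratios of group means within each file number (3 libraries per water); all lie below 0, and GCDH in number 3 lies nearest to 0 at -0.04.

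Whether the river difference depended on the file number was tested over all features with an interaction term. None of the 5 members passed (edgeR quasi-likelihood test, adjusted p of 0.883 for AASS, DHTKD1 and GCDH, 0.929 for AADAT and 0.972 for ALDH7A1). GCDH had an unadjusted p of 0.0421 and DHTKD1 one of 0.0558 (edgeR). Without river water replicate 1 the unadjusted p was 0.012 for GCDH and 0.0908 for DHTKD1 (edgeR). The adjusted p was then 0.963 for both, 0 features passed and 400 had an unadjusted p under 0.05. Over all features in all 18 libraries, 0 of 9025 passed with edgeR or with limma-voom (0% called). Of these features, edgeR gave 291 an unadjusted p under 0.05. With 3 against 3 libraries, edgeR called 0 members inside number 1, where it called 0% of all features, and 0 inside number 2, where it called 0.0555%. Inside number 3 it called AASS and ALDH7A1, among 3.06% of all features.

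The spread among the laboratory water libraries describes how each enzyme varied among control pools. It is not free of the choice of members, since a feature with a small spread is more readily called. The coefficients of variation were computed with TMM scaling only, and the order of the members can differ under another scaling. With TMM scaling, DHTKD1 was the steadiest member. Its coefficient of variation was 2.45% over the 9 laboratory libraries, where counting error alone (Poisson, at the mean count) would give 2.25%. Only 0.611% of tested features had a lower value, and the median over all tested features was 7.99%. AASS varied by 5.21%, AADAT by 5.60%, ALDH7A1 by 7.37% and GCDH by 7.65%, against counting errors of 2.31%, 3.44%, 1.37% and 0.99%. Over the 9 river libraries the coefficients were 11.6% for AASS, 5.10% for AADAT, 6.59% for ALDH7A1, 8.04% for DHTKD1 and 7.93% for GCDH, with a median over all features of 11.8%. Without replicate 1 they were 7.42%, 5.45%, 7.02%, 5.28% and 8.47% in the same order, with a median of 8.35%.

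By file number within laboratory water, GCDH had means of 574 ± 34.3, 592 ± 34.6 and 520 ± 28.2 CPM (SD, n = 3 each) in numbers 1, 2 and 3. This difference did not pass over all features (adjusted p = 0.434, unadjusted p = 0.0460, edgeR). In this test 991 of 9018 features had an unadjusted p under 0.05 (edgeR). The interaction fit above includes the same laboratory libraries. The adjusted p of the other 4 members was between 0.885 and 0.993 (edgeR), and 0.976% of the tested features were called in that test.

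Among laboratory pools the correlation between members differed from pair to pair. Over the 10 pairs the Pearson correlation of log2 level across the 9 laboratory libraries had a median of 0.31 and a range from -0.50 to 0.79, and the Spearman correlation a median of 0.26. These libraries share their scaling and the tissue makeup of each pool, and the values are a description. Values of single pairs are given with TMM scaling only and can differ under another scaling. ALDH7A1 and AADAT were most alike (Pearson r = 0.79, Spearman rho = 0.83), with 3.39% of other features at least as close to ALDH7A1. Without the 2 libraries farthest from the ALDH7A1 median r was 0.70. In river water this pair had r = -0.31 over 9 libraries and also -0.31 over 8, without replicate 1. With TMM scaling, DHTKD1 varied by 2.45% over the laboratory libraries, near its counting error of 2.25%. Its laboratory correlations can therefore be largely counting noise, and little is read from them. Over the 9 laboratory libraries, the negative Pearson values all belonged to pairs with DHTKD1. Pairs without DHTKD1 ran from 0.05 (AASS with ALDH7A1) to 0.79. The value of 0.05 became -0.51 without the 2 libraries farthest from the AASS median. ALDH7A1 and DHTKD1 had the lowest value in laboratory water, r = -0.50, and r = 0.35 in river water, or 0.52 without replicate 1. The last value rested on a pair of libraries, since r was -0.23 once the 2 libraries farthest from the ALDH7A1 median were also left out. ALDH7A1 and GCDH had r = 0.22 in laboratory water and r = 0.76 in river water. Whether these correlations differ between the waters was not tested.

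The relation of AASS to GCDH in laboratory water (r = 0.61, rho = 0.48) rested on a pair of libraries, since r was -0.08 without the 2 libraries farthest from the AASS median. In river water this pair had r = 0.34 over 9 libraries and 0.62 without replicate 1. Over all features, the median correlation in laboratory water with AASS, ALDH7A1, AADAT or DHTKD1 was between -0.04 and 0.02. This median was not computed for GCDH. The features nearest to the ends of the route in laboratory water were K11413 for AASS (r = 0.96, rho = 0.90, n = 9) and K05606 for GCDH (r = 0.97, rho = 0.93, n = 9). They are the closest of 9007 others by choice, and 3 and 15 features reached r of at least 0.9 with AASS and GCDH. K11413 was called lower in river water (log2 fold change -0.23) and K05606 was not called (log2 fold change -0.11). K05606 is also a feature of the branched-chain and propionate list described below.

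**Figure D4:**
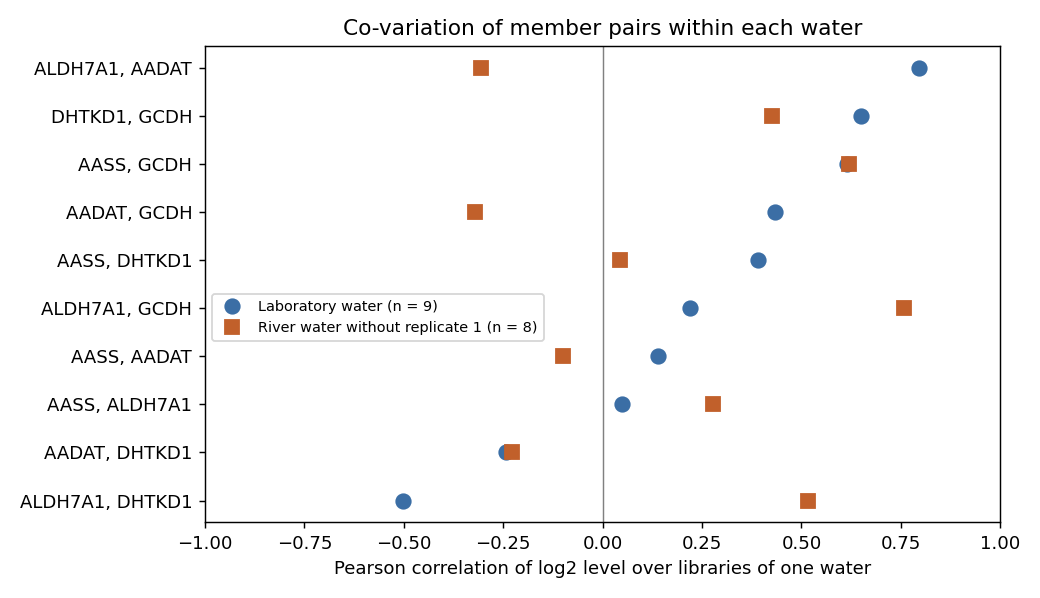
Pearson correlation of log2 level (TMM scaling) for each of the 10 pairs of members over the 9 laboratory water libraries (circles) and over the 8 river water libraries without replicate 1 (squares). With this scaling, laboratory values of pairs with DHTKD1 are limited by counting error. Pairs are sorted by the laboratory value; ALDH7A1 with AADAT runs from 0.79 in laboratory water to -0.31 in river water, and AASS with GCDH lies at 0.61 and 0.62, where all 9 river libraries give 0.34.

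Lists of related identifiers were set beside the members. They were drawn up from general knowledge of the KEGG numbering, and no file used here pairs these identifiers with names, so they are described as whole lists, with no gene names. The list for the rest of lysine breakdown holds 12 features that act beside or after the members, such as the partner subunits of the 2-oxoadipate complex, the electron acceptor of GCDH and the enzymes that take crotonyl-CoA to acetyl-CoA, many of which also serve fatty acid oxidation. Of these, 7 of 12 fell and 0 rose in river water (edgeR, 4.14% of all features called lower and 2.13% higher). For this and the other lists, fell and rose mean called at an adjusted p under 0.05. All 12 had a negative log2 fold change, beside 4236 of the 9008 tested features. The list median was -0.18 beside 0.01 over all tested features. In the list for breakdown of branched-chain amino acids and propionate, 14 of 18 fell, 0 rose and the median was -0.23. In the citrate cycle list 6 of 10 fell, 0 rose and the median was -0.18, but 3 fell without laboratory water replicate 3 or without laboratory water replicate 8. In the list for other amino acids, such as phenylalanine, tyrosine, tryptophan, proline, glycine and histidine, 3 of 19 fell, 0 rose and the median was -0.12. The median of the 5 members was -0.24. With river water replicate 1 left out, the lower calls in these lists, in the order given, were 8, 15, 8 and 4. That fit called 6.72% of all features lower. The list medians were then -0.17, -0.21, -0.17 and -0.10, and that of the members stayed at -0.24. The lists were chosen with earlier results of these data known, no set test was run, and the differences between lists were not tested.

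Hepatocyte markers were examined because liver is a main site of lysine oxidation. Of the 7 listed markers, all plasma protein features, 7 were tested and 0 were called in either direction, beside 6.27% of all features. With so few markers, 0 calls lies near that share and does not show that they were unchanged. Their log2 fold changes ran from -0.33 to 0.19 with a median of 0.01. Of these markers 3 of 7 were negative, beside 4236 of the 9008 tested features. Without river water replicate 1 their median was 0.03, and 0 were called, beside 10.9% of all features. Their summed level was 6200 to 8302 CPM in laboratory water, and 5669 to 7440 CPM in river water without replicate 1. River water replicate 1 had 3409 CPM, the lowest of all libraries, in the pool where AASS and DHTKD1 were also lowest. No hepatocyte marker was at 0 in any library. The sum weights each marker by its level. Among laboratory pools the lowest marker averaged 62.6 CPM, where the sum averaged 7161 CPM. The sum therefore mostly follows the more abundant markers and is not an even measure of the 7. The share of each marker is not given here. Neither the low sum of river water replicate 1 nor the correlations with the sum below are read as liver content. Of 3 listed kidney tubule markers 2 were tested and 0 were called, and the remaining marker was absent from the features used. The 2 tested markers are also found in intestine and yolk-handling epithelia, so their sum is not a measure of kidney alone. Their summed level was 50.4 to 73.7 CPM in laboratory water and 33.6 to 74.0 CPM in river water, or 49.0 to 74.0 CPM without replicate 1. In laboratory water the correlations of the members with the summed hepatocyte markers ranged from -0.50 to 0.63 (Pearson, n = 9). In river water they ranged from -0.07 to 0.92 over 9 libraries and from -0.40 to 0.71 over 8, without replicate 1. With the tubule markers the ranges were -0.57 to 0.17 in laboratory water, -0.30 to 0.86 in river water and -0.48 to 0.77 without replicate 1. The part of tissue makeup in the members' differences was not tested.

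**Figure D5:**
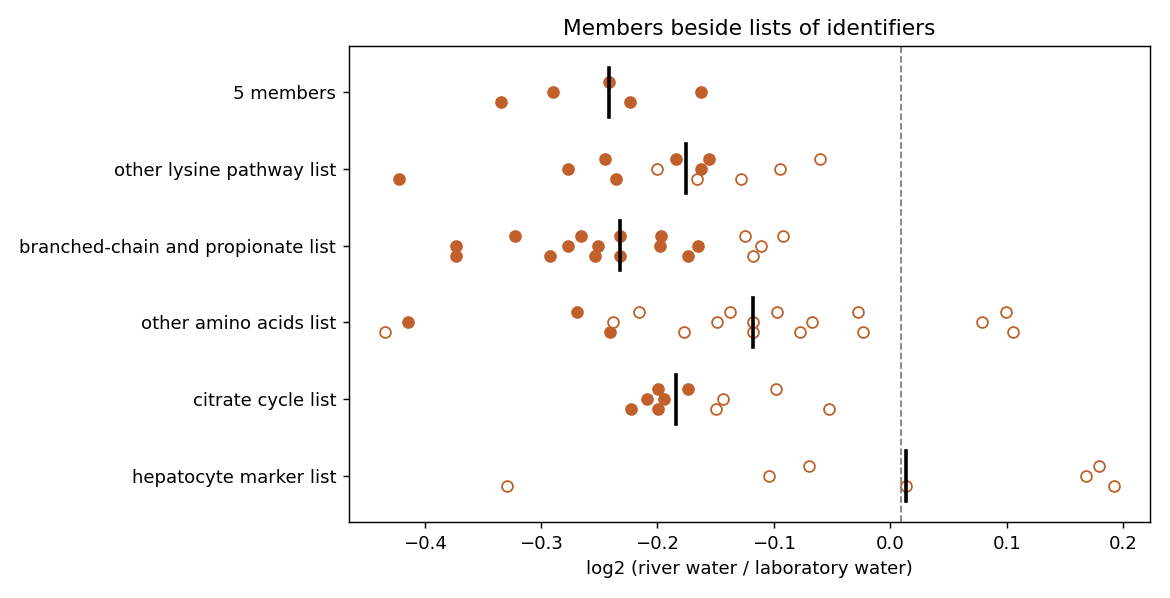
Log2 ratio of river over laboratory water, over all 18 libraries, for the 5 members and for each feature of 5 lists. Filled points were called at an adjusted p under 0.05 (edgeR) and open points were not. Black bars are list medians and the dashed line is the median over all tested features (0.01). The hepatocyte markers and the other amino acids list lie on both sides of 0. The members and the other lysine, branched-chain and citrate cycle lists lie wholly below it.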

How the data were processed

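The authors deposited raw whole-number counts for 18 libraries; how reads were aligned and counted is not given in the sources used here, and the submitters' processing notes name edgeR without a version. Each sample file lists 9025 features and the table of the whole series lists 9645; in 0 libraries did their values differ. The sample files were used. Groups came from sample titles. Counts were filtered with edgeR's default rule (minimum count 10, minimum total 15), scaled by TMM and compared with edgeR 4.0.16 in R 4.3.3 (quasi-likelihood test, robust, water as the term, Benjamini-Hochberg over all tested features, threshold 0.05). Standard errors are the log2 fold change divided by the root of F, and a prior count of 2 was added for log2 CPM. Depth limits precision through counting error, given beside the spread. The fits were tested on simulated data. These were independent counts with the spread fitted here and no outlying library. The simulation is therefore no check on the effect of river water replicate 1 or of spread shared within a file number. The text names the 5 members and the feature most correlated with AASS and with GCDH. Members and lists were chosen with earlier results of these data known. Alternatives were other scalings and filters, DESeq2 1.42.0, limma-voom (limma 3.58.1), blocks, file numbers and libraries left out. Replicate numbers were not treated as pairs. Sequences and genome positions were not analysed here.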

Additional observations from a re-analysis of the deposited data

Results flagged for a closer look

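In laboratory water, DHTKD1 had 102.4 CPM in replicate 9, below the other 8 libraries, which spanned 107 to 111 CPM. The gap from this library to the next was 0.509 of the whole range, above the critical value that Dixon gives at 95% for 9 values. It was the only one of 10 sets (5 members in 2 waters) with such a gap. Chance alone gives such a gap in about 1 in 20 sets, so 1 flag among 10 sets is not unusual. The gaps were computed with TMM scaling only, so the flag is tied to that scaling. GCDH was also lowest among laboratory libraries in replicate 9, at 487 CPM. Without this library the log2 fold change of DHTKD1 was -0.30.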

How the results depend on the processing

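All 5 members stayed lower in river water in all 34 alternative fits (170 of 170 values). These fits reuse the same libraries, and the members were picked on this contrast. Nothing is therefore read from the constant sign or from the member calls below. All 5 were called in each fit with 1 library left out. The share of features called, 6.27% (565), was 9.98% (899) with DESeq2, 11.5% (1041) with river water replicates 1 and 6 left out, 4.18% to 10.9% with 1 library left out (10.9%, 979 features, without river water replicate 1), and 531 to 574 features under other scalings, filters, limma-voom, no robust estimation, the series table or the file number as a block. With a replicate block it was 3.95% (356 features, 324 shared with the 565), and all 5 members were still called. Same-numbered libraries correlated at -0.433 to 0.372 in their deviations, 4 of 9 pairs over 0.1, and 2 of 18 libraries matched best with their own number. With libraries summed by file number (3 against 3, so fewer samples) 3.45% of features and 3 members were called, without AADAT and GCDH, and the lists for other lysine steps, branched-chain, other amino acids and citrate cycle had 4, 9, 2 and 3 lower calls. Within file numbers 1 and 2 the calls were 0% and 0.0555% of features and 0 members, with 0 in every list; within number 3 they were 3.06% of features, 2 members and 1, 6, 1 and 0 in the lists. With 1 library left out those lists had 5 to 8, 13 to 15, 2 to 4 and 3 to 8. The median correlation between members in river water was 0.23, and 0.16 without replicate 1. Causes of these shifts were not tested. Depth left 544 to 987 counts per library for AADAT, the least abundant member by counts.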
